A study of Rattus norvegicus with 8 samples.

Results

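The genes described here encode the subunits, the inhibitors and 1 anchor protein of protein kinase A, measured in PC12 cells with and without forskolin. They were taken by name: every probe set on either microarray chip whose annotated symbol was Prkaca, Prkacb, Prkar1a, Prkar1b, Prkar2a, Prkar2b, Pkia, Pkib, Pkig or Akap12. All 10 genes were found, out of 13810 genes named on the chips. They were covered by 19 probe sets on chip A and by 1 on chip B, a further probe set of Prkacb. PC12 is a rat cell line from a pheochromocytoma, a tumour of the chromaffin cells of the adrenal medulla. On each chip, total RNA of PC12 cells given forskolin was measured on 2 arrays and that of PC12 cells without forskolin on 2 arrays, 8 arrays in 4 groups in all. Forskolin is a plant compound that switches on adenylyl cyclase. The series title calls the control inactive. The sources used here do not give its nature, the dose or the time of exposure. All groups are of the same single tumour-derived line, and the labels do not say that the replicates came from separate cultures, so the p-values measure only the spread between these arrays, which may be technical.

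Protein kinase A is the main intracellular receptor of cyclic AMP. At rest a dimer of regulatory subunits holds the catalytic subunits inactive. Cyclic AMP binds the regulatory subunits and frees the catalytic ones, which phosphorylate proteins in the cytoplasm and, after entering the nucleus, the transcription factor CREB. The heat-stable inhibitors bind free catalytic subunits as pseudosubstrates and carry them out of the nucleus, and A-kinase anchor proteins tether the kinase at membranes and organelles. In chromaffin-derived cells this pathway is known for phosphorylating tyrosine hydroxylase and for switching on genes with cyclic AMP response elements.

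The level of a probe set is given as the authors' deposited log2 value. Changes are forskolin minus no forskolin on that scale, and a call is a limma p-value under 0.05 after Benjamini-Hochberg adjustment over the chip's tested probe sets, two-sided. Probe sets below the 30th percentile of mean brightness (log2 levels of 7.02 for chip A and 6.02 for chip B) were not tested. For chip A, 9 of the 10 genes had a tested probe set, and 16 of the 19 probe sets were tested. The exceptions were both probe sets of Pkib and 1 of Prkar2a. Of the chromaffin and sympathetic markers, 9 of 11 lay above the filter, among them Th, Chga, Chgb, Phox2a, Hand2 and Gata3, while Dbh (6.68 to 6.90) and Slc18a1 (6.75 to 6.94) lay under it. Above the filter were also 4 of 7 fibroblast markers, Col3a1 with 11.81 to 11.84, 2 of 4 glial, 2 of 6 adrenal cortex and 2 of 5 blood and endothelial markers. Changes lay between -0.12 and 0.41 (log2) for the chromaffin and sympathetic markers, with Phox2a at 0.41 and Hand2 at 0.16, and between -0.095 and 0.15 for the others. Their part in the results was not tested. Arrays of total RNA cannot tell fewer cells of a kind from less RNA per cell.

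None of the 9 genes with a tested probe set passed the test in either direction, and Pkib was not tested. On chip A none of the 16 tested member probe sets was called, against 3.3% of all 11106 tested probe sets of the chip, and the 1 on chip B was not called, against 0.159% of 10693. At an unadjusted p under 0.05, 1 member probe set was lower and none higher on chip A (17.4% of all tested probe sets had such a p, 7.1% higher and 10.3% lower), and none on chip B (4.97%). An ordinary linear model without limma's moderation called no member either. Over all tested probe sets that model called only 0 higher and 1 lower on chip A, and 3 and 0 on chip B. It could therefore hardly have called a member, and its lack of calls adds nothing. At an unadjusted p under 0.05 that model had 1 member lower, a different probe set (Prkacb 1371835_at in place of Prkar2a 1373400_at). Its share of all probe sets with such a p was not counted. The changes of the 16 probe sets ran from -0.11 to 0.074 with a median of -0.014 (log2), beside a median of -0.0082 over all tested probe sets of chip A. The 95% interval of every tested member probe set on chip A stayed within 0.233 of 0, which is a change of 1.18-fold in either direction. That bound lies inside the range of sizes that were called on this chip, where the smallest called change was 0.15 and 110 of 366 calls were under 0.25 (log2).

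**Figure D1:**
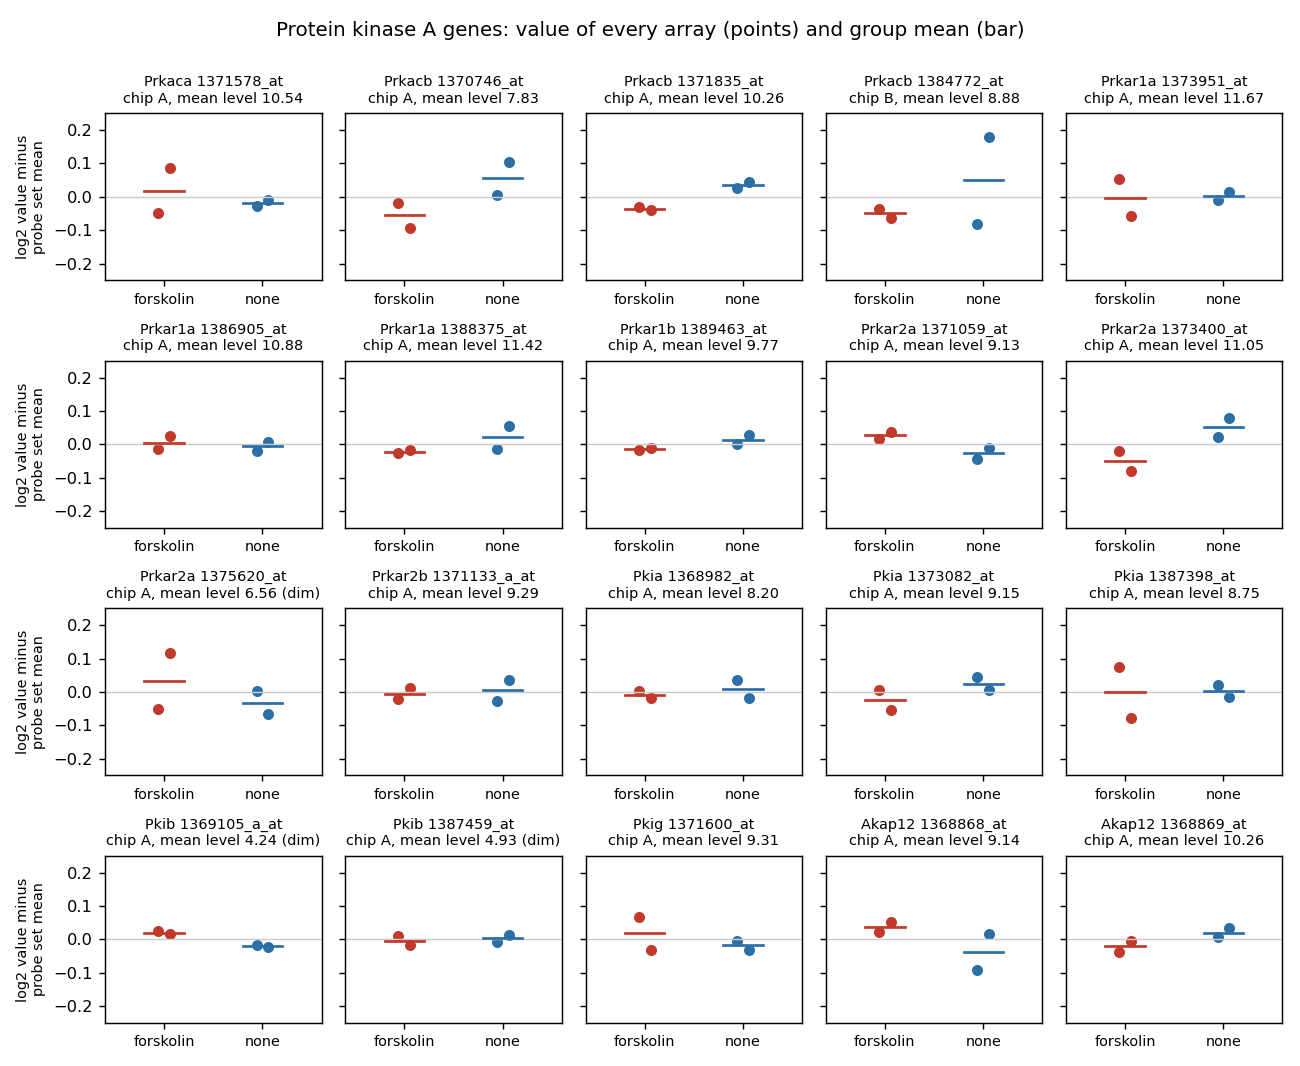
Log2 value of each array minus the mean of the 4 arrays, for the 20 probe sets of the 10 genes, with forskolin arrays (red) left of arrays without forskolin (blue). Points are arrays, bars are group means, and (dim) marks probe sets under the brightness filter. The largest distance of an array from its probe set's mean is 0.12 on chip A and 0.18 on chip B.

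Promoters of these genes are shown because they can be searched for the cyclic AMP response element, the site through which CREB acts. RefSeq promoters of build GRCr8 (250 bases before to 50 after each start, on the gene's strand) were matched for 8 of the 10 genes, 11 promoters in all; for Prkar2a and Pkia none was matched. Both strands were searched for the full element TGACGTCA and for its core TGACG, which the full element contains once on each strand. No member promoter held the full element, which 1.83% of all 33469 promoters hold. The core was found in 3 of the 11, beside 21.2% of all promoters. These were the promoter of Prkaca (chr19:41083140-41083439, minus strand), that of Prkacb (chr2:238386266-238386565, minus strand) and promoter 3 of Pkig (chr3:172786025-172786324, plus strand). They are shown with the core in capitals, written CGTCA where it lies on the opposite strand. The fourth sequence, promoter 3 of Crem (chr17:58985240-58985539, plus strand), is shown as an example of the full element, which it holds at 2 places, in capitals. Promoter 2 of Crem holds the full element at 1 place, and promoter 1 of Crem does not hold it. Among other pathway genes called higher, the promoter of Sik1, the 5 promoters of Pde4d and the 2 of Pde4b held none, and those of Pde4b held no core either.
Prkaca: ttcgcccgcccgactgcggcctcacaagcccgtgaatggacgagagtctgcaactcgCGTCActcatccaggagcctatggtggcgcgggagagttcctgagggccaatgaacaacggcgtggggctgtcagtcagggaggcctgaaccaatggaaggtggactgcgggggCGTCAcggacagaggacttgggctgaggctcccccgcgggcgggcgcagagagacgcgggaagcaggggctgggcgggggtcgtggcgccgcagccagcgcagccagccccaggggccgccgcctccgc
Prkacb: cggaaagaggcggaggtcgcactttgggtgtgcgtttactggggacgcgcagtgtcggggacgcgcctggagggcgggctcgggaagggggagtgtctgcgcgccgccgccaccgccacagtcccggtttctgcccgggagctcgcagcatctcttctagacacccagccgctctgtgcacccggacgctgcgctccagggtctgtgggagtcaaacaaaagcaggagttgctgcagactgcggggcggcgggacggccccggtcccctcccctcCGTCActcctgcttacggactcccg
Pkig: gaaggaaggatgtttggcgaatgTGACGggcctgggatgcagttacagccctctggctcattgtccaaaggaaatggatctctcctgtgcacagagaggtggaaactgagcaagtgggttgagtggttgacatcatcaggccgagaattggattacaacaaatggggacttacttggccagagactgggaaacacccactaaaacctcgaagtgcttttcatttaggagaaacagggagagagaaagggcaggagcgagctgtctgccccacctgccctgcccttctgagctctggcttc
Crem: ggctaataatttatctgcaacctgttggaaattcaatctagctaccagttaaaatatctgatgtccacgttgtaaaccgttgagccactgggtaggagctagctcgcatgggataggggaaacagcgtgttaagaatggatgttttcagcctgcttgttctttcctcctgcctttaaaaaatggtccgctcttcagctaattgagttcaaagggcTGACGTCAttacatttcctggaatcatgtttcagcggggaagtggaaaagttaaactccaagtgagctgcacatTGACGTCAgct
The cores of Prkaca began 193 and 79 bases upstream of the start, that of Pkig 227 bases upstream, and that of Prkacb 25 bases downstream. GC content of the 11 member promoters ran from 49.7% to 79.0%, beside a median of 51.7% over all promoters. A match is a run of letters and does not show that a protein binds there.

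The catalytic subunits carry the kinase activity. Prkaca, the catalytic subunit alpha, had log2 levels of 10.49 and 10.63 with forskolin, against 10.51 and 10.53 without. The groups overlapped, since 1 forskolin array lay below and the other above both controls. Its change was 0.037 ± 0.047 (SE, n = 2 arrays per group; limma adjusted p = 0.736), with a 95% interval of -0.070 to 0.14. Leaving out forskolin replicate 2 turned it to -0.029, and leaving out replicate 1 gave 0.10, neither called.

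Prkacb, the catalytic subunit beta, had a change below 0 on all 3 of its probe sets, across both chips, and on none was it called. Among all tested probe sets, only 45.0% on chip A and 38.1% on chip B had a change above 0. The labels do not say whether the chips were given separate RNA. The brighter one on chip A, 1371835_at, had 10.23 and 10.22 with forskolin, against 10.29 and 10.31 without, and its change was -0.071 ± 0.035 (log2, SE, limma adjusted p = 0.336). The other, 1370746_at, had 7.81 and 7.74 with forskolin, against 7.84 and 7.93 without, a change of -0.11 ± 0.053 (adjusted p = 0.323). Leaving out no forskolin replicate 2 gave -0.063 and leaving out forskolin replicate 2 gave -0.075, while the other omissions gave -0.15 and -0.16. On both probe sets each forskolin array lay below each control array, as in 28% of all tested probe sets of chip A. The probe set on chip B had 8.84 and 8.81 with forskolin, against 8.79 and 9.06 without. There the groups overlapped, and the change of -0.098 ± 0.10 (log2, SE, limma adjusted p = 1) followed 1 array: without no forskolin replicate 2 it was 0.033, and without no forskolin replicate 1 it was -0.23. The 95% intervals ran from -0.15 to 0.0084 (1371835_at), from -0.23 to 0.0097 (1370746_at) and from -0.34 to 0.15 (chip B). All 3 include 0, so both no change and a fall of Prkacb down to the lower ends lie within what the arrays allow. The interval on chip B also allows a rise.

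**Figure D2:**
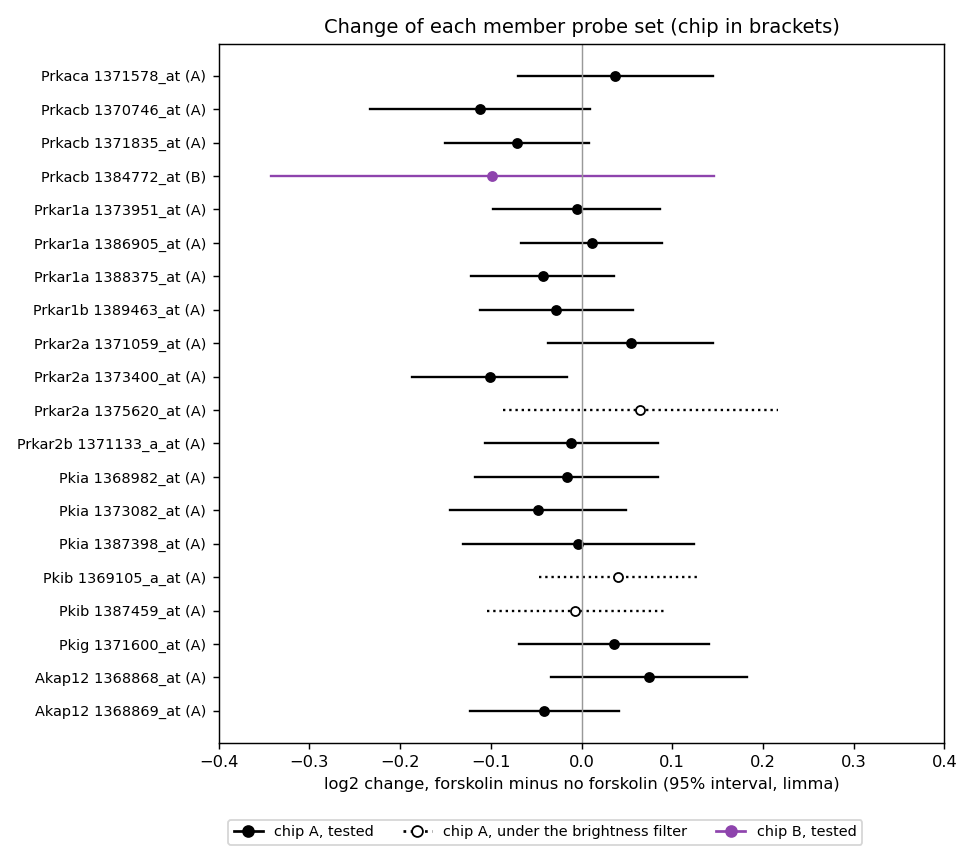
Log2 change of each member probe set, forskolin minus no forskolin (points), with limma's 95% interval (lines), and the chip in brackets. Open points with dotted lines are probe sets under the brightness filter, with intervals from the fit of all probe sets. Only the interval of Prkar2a 1373400_at, from -0.19 to -0.016, does not cross 0.

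The regulatory subunits bind cyclic AMP and hold the catalytic subunits in check. Those of type I are largely cytosolic, and those of type II bind anchor proteins more tightly. Prkar1a, the regulatory subunit I alpha, was measured by 3 probe sets whose changes lay between -0.043 and 0.011 (log2). Its probe set 1388375_at had 11.39 and 11.41 with forskolin, against 11.41 and 11.48 without. The forskolin arrays lay just below both controls there, while the groups of the other 2 probe sets overlapped. All 3 of its 95% intervals fell between -0.12 and 0.089. Prkar1b, the regulatory subunit I beta, which is known mainly from brain, had 9.75 and 9.76 with forskolin, against 9.77 and 9.80 without. Its forskolin arrays lay below both controls by a small margin, with a change of -0.028 ± 0.037 (log2, SE, limma adjusted p = 0.752).

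Prkar2a, the regulatory subunit II alpha, gave the member probe set with the smallest p, and its probe sets pointed in opposite directions. Probe set 1373400_at had 11.03 and 10.97 with forskolin, against 11.07 and 11.13 without. Both forskolin arrays lay below both controls, and the change was -0.10 ± 0.037 (log2, SE; unadjusted p = 0.0253, adjusted p = 0.214, limma). Probe set 1371059_at had 9.15 and 9.17 with forskolin, against 9.09 and 9.12 without. Here both forskolin arrays lay above both controls, with a change of 0.054 ± 0.040 (adjusted p = 0.522). The third probe set, 1375620_at, lay under the filter, with 6.51 and 6.67 with forskolin and 6.56 and 6.49 without, and its groups overlapped. On the array-by-array difference between the first and the second probe set, the forskolin arrays were at 1.88 and 1.80, against 1.98 and 2.01 without forskolin. The pair was singled out after its values were seen, so its separation is given without a test. The mean change over the 2 tested probe sets was -0.024 (log2).

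Prkar2b, the regulatory subunit II beta, which is known from neuroendocrine and fat cells, had 9.27 and 9.30 with forskolin, against 9.27 and 9.33 without. The groups overlapped and the change was -0.011 ± 0.042 (log2, SE, limma adjusted p = 0.928).

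Among the inhibitors, Pkia (inhibitor alpha) was measured by 3 probe sets with changes from -0.048 to -0.0037 (log2), all with overlapping groups. Of these, 1368982_at and 1387398_at are annotated to the same accession and are not independent readings. The probe set with the largest difference, 1373082_at, had 9.16 and 9.09 with forskolin, against 9.19 and 9.15 without, and its limma adjusted p was 0.602. Pkig (inhibitor gamma) had 9.38 and 9.28 with forskolin, against 9.31 and 9.28 without. Its groups overlapped, and the change was 0.036 ± 0.046 (log2, SE, adjusted p = 0.738). Leaving out forskolin replicate 1 turned it to -0.014, and leaving out replicate 2 gave 0.086.

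Pkib (inhibitor beta) lay far under the filter on both of its probe sets. Probe set 1387459_at had 4.94 and 4.91 with forskolin, against 4.92 and 4.94 without, and 1369105_a_at had 4.27 and 4.26, against 4.23 and 4.22. No detection calls were used here, so how far these levels lie above background is not known. On 1369105_a_at both forskolin arrays lay above both controls by a small margin. In the limma fit with no filter its change was 0.040 ± 0.037 (log2, SE, adjusted p = 0.661), and that of 1387459_at was -0.0069 ± 0.042 (adjusted p = 0.966).

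Akap12, also called gravin or SSeCKS, is a membrane-associated scaffold that anchors protein kinase A together with protein kinase C. Its 2 probe sets, annotated to the same accession, differed in direction and were not called. Probe set 1368868_at had 9.17 and 9.20 with forskolin, against 9.05 and 9.16 without, a change of 0.074 ± 0.047 (log2, SE, limma adjusted p = 0.459) that was 0.021 on leaving out no forskolin replicate 1 and 0.13 on leaving out no forskolin replicate 2. Probe set 1368869_at had 10.22 and 10.26 with forskolin, against 10.27 and 10.30 without, a change of -0.041 ± 0.036 (adjusted p = 0.605). On the first both forskolin arrays lay above both controls, and on the second both lay below. The difference between the 2 probe sets was -1.06 on both forskolin arrays, against -1.21 and -1.14 without forskolin, and this pair, too, was singled out after its values were seen.

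Taking the genes side by side, the forskolin and control arrays did not overlap on 8 of the 16 tested probe sets of chip A, 2 with forskolin above and 6 with forskolin below. Among the chip's 11106 tested probe sets, the groups did not overlap in 48.5%, with forskolin above in 20.4% and below in 28%. The groups of the member probe set on chip B overlapped, and 32.7% of tested probe sets there did not. All 16 changes on chip A lay between -0.17 and 0.19, which bound the middle 95% of changes on the chip. The plot of member changes against the chip's distribution shows them around its centre. Which gene stands higher than another cannot be read from these values, since each probe set has its own response to its target.

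**Figure D3:**
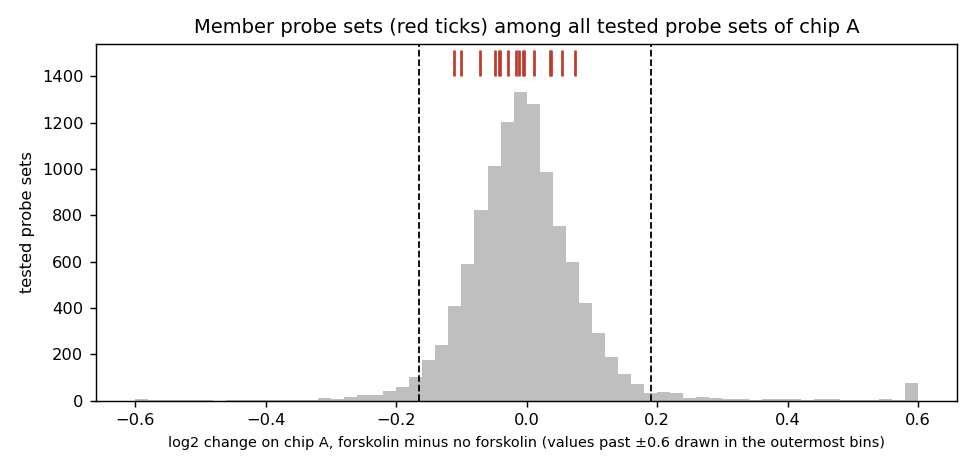
Distribution of log2 changes of the 11106 tested probe sets on chip A (grey bars, number of probe sets per bin) with the 16 tested member probe sets as red ticks. Dashed lines bound the middle 95% of all changes, and all the ticks lie between them.

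The patterns over the 4 arrays most like that of Prkar2a 1373400_at, by root mean square difference of centred log2 values among 9359 named probe sets of other genes, were those of Trpc2, Metap1 and Scd2. These differences were 0.0024 to 0.0034, and none of the 3 was called by limma (smallest adjusted p = 0.165). For Prkacb on chip B, compared with 5934 probe sets over its 4 arrays, they were Klhl24, Zcchc7 and Coa5, with differences of 0.0047 to 0.0068 and no call. These genes were picked because their values match a probe set that was not called. Their small changes and lack of calls follow from that choice.

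The rest of the pathway was read from 6 lists, with a gene represented by the brightest of its tested probe sets and chip A taken before chip B. On chip A, 2.03% of all tested probe sets were called higher and 1.26% lower, and on chip B 0.15% and 0.00935%. At an unadjusted limma p under 0.05, 7.1% were higher and 10.3% lower on chip A, and 4.97% had such a p in either direction on chip B. The counts at that p given below for the lists are to be read beside these shares. Of 25 tested genes listed as anchor proteins, with Akap12 left out, 1 was called lower and none higher, with a median change of -5e-07 (log2). At an unadjusted p under 0.05, 1 was higher and 1 lower. The call was Akap8l, a nuclear homologue of the anchor protein Akap8, with 8.83 and 8.81 with forskolin, against 9.02 and 9.20 without. Its change was -0.29 ± 0.060 (log2, SE, limma adjusted p = 0.0395), and its other tested probe sets measured -0.058 and -0.083 without a call. The call was lost on leaving out forskolin replicate 1 (adjusted p = 0.102), forskolin replicate 2 (0.124) or no forskolin replicate 2 (0.0855), and with no filter (0.0654).

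Upstream of the kinase, none of 11 tested genes of G proteins, adenylyl cyclases and cyclase-associated proteins (Cap1 and Cap2) was called by limma. At an unadjusted p under 0.05, 1 of them was higher, and their median change was 0.0022 (log2). Gnas, the stimulatory G protein alpha subunit, had 13.70 and 13.72 with forskolin, against 13.66 and 13.66 without. Its change was 0.051 (limma adjusted p = 0.281), and its other probe set measured 0.0067. Under quantile normalization the change of the first was 1.8e-15. That method gives equal ranks the same value on every array, so this outcome does not test the change. The cyclases Adcy3 and Adcy6, which make cyclic AMP, measured 0.054 and -0.072. None of 8 tested other cyclic AMP effectors and related kinases was called either (2 higher at an unadjusted p under 0.05, median 0.027). Prkx, a kinase close in sequence to the catalytic subunits, had 10.02 and 10.10 with forskolin, against 9.95 and 9.92 without. Its change of 0.13 ± 0.042 (log2, SE) had a limma adjusted p of 0.163, and its probe set on chip B measured 0.037. The pacemaker channel gene Hcn4 measured 0.16 (adjusted p = 0.136), and Pdpk1, the kinase that phosphorylates the activation loop of many related kinases, 0.079.

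Downstream and in the breakdown of cyclic AMP, calls were made. Of 12 tested phosphodiesterases 2 were called higher and none lower, with a median of 0.074 (log2), and at an unadjusted p under 0.05 there were 4 higher and 1 lower. The calls were Pde4d, with 8.57 and 8.85 with forskolin against 7.74 and 7.77 without, and Pde4b, with 7.80 and 7.79 against 7.13 and 6.89. Both degrade cyclic AMP. Without forskolin Pde4b averaged 7.01, just under the level of the filter, so it passed the filter through its forskolin arrays, and how far that level lies above background is not known. Pde4d changed by 0.95 ± 0.082 (SE, limma adjusted p = 2.64e-04) and by 1.07 on a chip B probe set, and Pde4b by 0.79 ± 0.075 (adjusted p = 5.33e-04, and 0.00139 with no filter). Of 10 tested nuclear targets and their brakes, Crem and Sik1 were called higher and none lower, with a median of 0.037, and at an unadjusted p under 0.05 there were also 2 higher and none lower. Sik1, a kinase that holds back the coactivators of CREB, had 11.11 and 11.08 with forskolin, against 8.58 and 8.47 without, a change of 2.57 ± 0.046 (log2, SE, limma adjusted p = 1.96e-08). Its other tested probe set, also called higher, had 8.76 and 8.57 with forskolin, against 6.98 and 6.61 without, a change of 1.87 ± 0.11. Both of those control values lie under the filter level of 7.02, so the size of that change is uncertain. Crem, which encodes activators and repressors of the CREB family, changed by 0.88 ± 0.054 on chip A and by 2.49 and 2.15 on 2 probe sets of chip B. The last of these had 7.91 and 8.30 with forskolin, against 6.25 and 5.67 without, which lie around the filter level of 6.02, so the size of that change is uncertain. Of 16 tested phosphatases and ubiquitin ligases acting on the kinase or its substrates none was called by limma, 3 were lower at an unadjusted p under 0.05, and the median was -0.052 (log2). They were Ppp1cc (-0.13, adjusted p = 0.0720), a catalytic subunit of protein phosphatase 1, Ppp1r2 (-0.12), an inhibitor of that phosphatase, and Ppp2r5d (-0.11), a regulatory subunit of protein phosphatase 2A. Other tested probe sets of Ppp1r2 measured -0.011 and -0.091, and that of Ppp2r5d on chip B -0.029, none called. With median centring of the arrays, Ppp1cc was called lower (adjusted p = 0.0314).

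**Figure D4:**
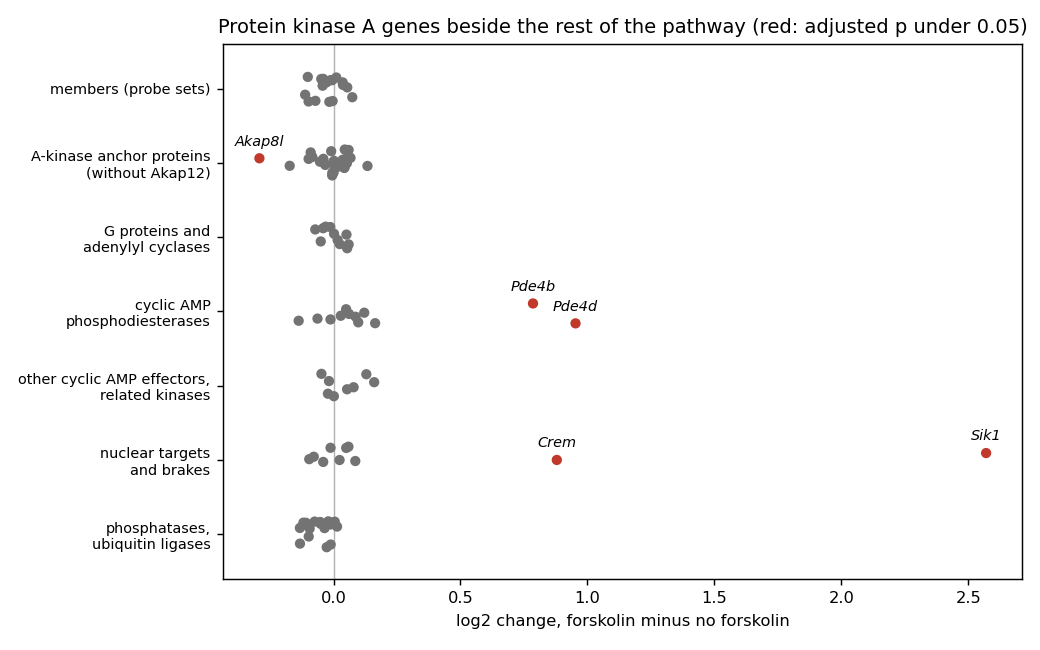
Log2 change, forskolin minus no forskolin, of the tested member probe sets (top row) and of the genes of the 6 pathway lists, 1 point per probe set or gene, with red points and names for calls at an adjusted p under 0.05. The members lie between -0.11 and 0.074. The lists of G proteins and cyclases (-0.072 to 0.060), other effectors (-0.048 to 0.16) and phosphatases (-0.13 to 0.014) held no call either. Of the called genes, Pde4b, Pde4d, Crem and Sik1 lie at 0.79 and above, and Akap8l lies at -0.29.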

How the data were processed

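RNA of PC12 cells was measured on 8 arrays, in 2 tables of 4 arrays, chip A with 15866 probe sets and chip B with 15276. The deposited values are taken as log2 expression values: raised to base 2 none exceeds a 16-bit scanner, whereas as natural logarithms 3063 of chip A and 115 of chip B would. The sources used here do not say what the authors did to make these log2 values (background, summary or scaling). No pseudocount or further scaling was applied, since array medians of a chip lay within 0.025 of each other.

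The chips were fitted separately with limma 3.58.1 in R 4.3.3 (lmFit, eBayes with an intensity trend, two-sided), after leaving out probe sets below the 30th percentile of mean linear value, which left 11106 and 10693. The fit was tested on simulated data. The number of arrays limits the precision: the median SE of a log2 change was 0.045 on chip A and 0.089 on chip B. Probe sets were named from the chips' GEO annotation, updated by Entrez number to RefSeq (GRCr8). On chip A 12783 carried 1 symbol, 312 several and 2771 none, and on chip B 7564, 100 and 7612. By Entrez number, 12748 and 7524 matched RefSeq.

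The members and lists were chosen with earlier results of these data known. Named were all members, the called genes of each list or else the 3 with the smallest p, and the 3 nearest patterns of the member probe set with the smallest p on each chip. Alternatives changed the filter, the scaling, the variance model, the block and the arrays left out.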

Additional observations from a re-analysis of the deposited data

How the results depend on the processing

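No member probe set was called under any of the 11 alternatives, and the smallest adjusted p was 0.124 on chip A (median centring) and 0.225 on chip B (without no forskolin replicate 1). Of 191 member changes recomputed (including means over a gene's probe sets), 13 changed sign, on 8 probe sets. Leaving out 1 array at a time gave ranges (log2) of -0.029 to 0.10 for Prkaca, -0.23 to 0.033 for Prkacb on chip B, -0.060 to 0.049 and -0.0082 to 0.030 for Prkar1a (1373951_at, 1386905_at), -0.043 to 0.020 for Prkar2b, -0.043 to 0.010 and -0.080 to 0.073 for Pkia (1368982_at, 1387398_at), and -0.014 to 0.086 for Pkig. Quantile normalization put Pkia 1387398_at at 0.00077. Prkacb 1370746_at ranged from -0.16 to -0.063 and Akap12 1368868_at from 0.021 to 0.13 with 1 array left out.

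Over all probe sets of chip A, 226 were called higher and 140 lower. Leaving out 1 array gave 165 to 256 higher and 79 to 198 lower, the fewest lower calls without forskolin replicate 1 and 85 without forskolin replicate 2. Median centring gave 277 lower (and 300 higher). On chip B 16 were called higher and 1 lower. Leaving out 1 array gave 8 to 47 higher and 0 to 50 lower, and quantile normalization 27 and 3. The ordinary linear model gave 0 higher and 1 lower on chip A and 3 and 0 on chip B, and made none of the list calls: 0 anchor proteins, 0 phosphodiesterases and 0 nuclear targets. The call in the anchor protein list, Akap8l, was lost (0 calls) also with no filter, without an intensity trend and with the replicate block, and leaving out 1 array gave 0 to 1. The median filter left 1 called phosphodiesterase because it removed Pde4b, and median centring called 1 phosphatase, Ppp1cc. The cause of the other differences was not tested.

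Replicate numbers were not taken to pair the arrays: the deviations of same-numbered arrays correlated across probe sets at 0.0034 on chip A and 0.20 on chip B, with only 2 numbers. With the replicate block, 46 probe sets of chip A were called lower (159 higher) and 2 of chip B (15 higher), and no member was called.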
